A study of Sus scrofa with 11 samples.

Results

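Molecular chaperones are proteins that help other proteins fold, hold them while they are unfolded, and pass those that cannot be rescued to degradation. The genes described here are those of a pig muscle gene table whose symbol begins with HSP followed by A, B, D, E, H or 90, with DNAJ, with BAG and a digit or with CCT and a digit. CRYAB was also to be included. Of 25322 gene IDs 64 had such a symbol, and 52 of them had at least 1 CPM (counts per 1000000 counts of the library) in 4 or more of the 11 pigs. These 52 genes are called members below. Of the 52, 49 reached 1 CPM in all 11 pigs. The other 3 were HSPA12B (5 fibre1 and 2 fibre2B pigs), DNAJC25 (4 and 4) and DNAJC18 (3 and 3). The highest library CPM among the 12 IDs left out was 0.809, in DNAJB13, and 3 of them (HSPB9, DNAJC5B and DNAJC9) had no count in any pig. CRYAB and HSPB1, the best-known small heat shock protein genes of muscle, matched no row by symbol and were not analysed here. In all, 25 of 88 symbols in a RefSeq gene table that fit the rule matched no row, these included.

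The pigs were 11 females aged 23 weeks, and the muscle was longissimus lumborum, which runs along the back, sampled at slaughter. Fibre histology set the groups. The 7 fibre1 pigs had over 17% slow oxidative type I fibres and under 70% fast glycolytic type IIB fibres. The 4 fibre2B pigs had under 8% type I and over 70% type IIB fibres. The labels name no breed, genotype or treatment, so the groups differ by histology alone as far as the labels go. Each pig gave 1 sample, and the p-values below measure the spread between these pigs. Total counts ran from 14832736 to 36374829 per pig. Skeletal muscle markers summed to 120800 to 258700 CPM in fibre1 and 103800 to 133200 CPM in fibre2B. The 6 tested slow-fibre markers summed to 10330 to 42000 CPM in fibre1 and 2715 to 10470 CPM in fibre2B. Pig 1 gave the 42000 CPM, the other fibre1 pigs had 10330 to 14060 CPM, and fibre2B pig 10 gave the 10470 CPM. By the edgeR test described below 1 of the 6 (MYH6) was called higher in fibre1, beside 4.38% of all genes tested. The samples are whole muscle, so fewer cells of a type and less RNA per cell cannot be told apart. The 10 most abundant nuclear genes took 45.2% and 44.1% of the counts in fibre1 pigs 5 and 6, against 29.5% to 36.8% in the other pigs. Their scaling factors (TMM) were 0.718 and 0.779, against 0.959 to 1.19 elsewhere.

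The HSP70 proteins (HSPA genes) bind short exposed stretches of unfolded proteins in a cycle driven by ATP. The DNAJ proteins, also called HSP40, bring substrates to HSP70 and start that cycle. The BAG proteins and the HSP110 proteins (HSPH1 among them) let HSP70 release its substrate again. HSP90 proteins act later, on partly folded kinases, receptors and, in muscle, myosin. The CCT ring folds actin and tubulin, the mitochondrial ring of HSPD1 and HSPE1 folds imported proteins, and small heat shock proteins (HSPB genes) hold unfolded proteins without ATP. Many of these genes are switched on by heat shock factors when unfolded proteins build up. Contracting muscle uses several of them all the time, among them the pair of HSPB8 and BAG3, which removes damaged filamin at the Z-disc.

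Of the 52 members, 5 differed between the groups by edgeR's quasi-likelihood test at a Benjamini-Hochberg adjusted p of 0.05 over all 11329 genes tested. HSPA1L and DNAJB2 were higher in fibre1, and DNAJB4, DNAJC24 and DNAJB9 were higher in fibre2B. That is 3.85% of members higher in fibre1 beside a background of 4.38% of all genes tested, and 5.77% higher in fibre2B beside 4.63%. In both directions together it is 9.62% beside 9.01%, so members were called about as often as genes in general. An unadjusted p under 0.05 was found in 20 members, 38.5% beside 28.9% of all genes. The groups did not overlap in 6 members, 11.5% beside 7.55% of all genes. Fibre1 was above fibre2B in 3 of them (background 3.40%) and below it in 3 (background 4.15%). The log2 fold change, fibre1 minus fibre2B, was positive in 28 members and negative in 24, with a median of 0.034 beside 0.0073 over all genes tested.

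**Figure D1:**
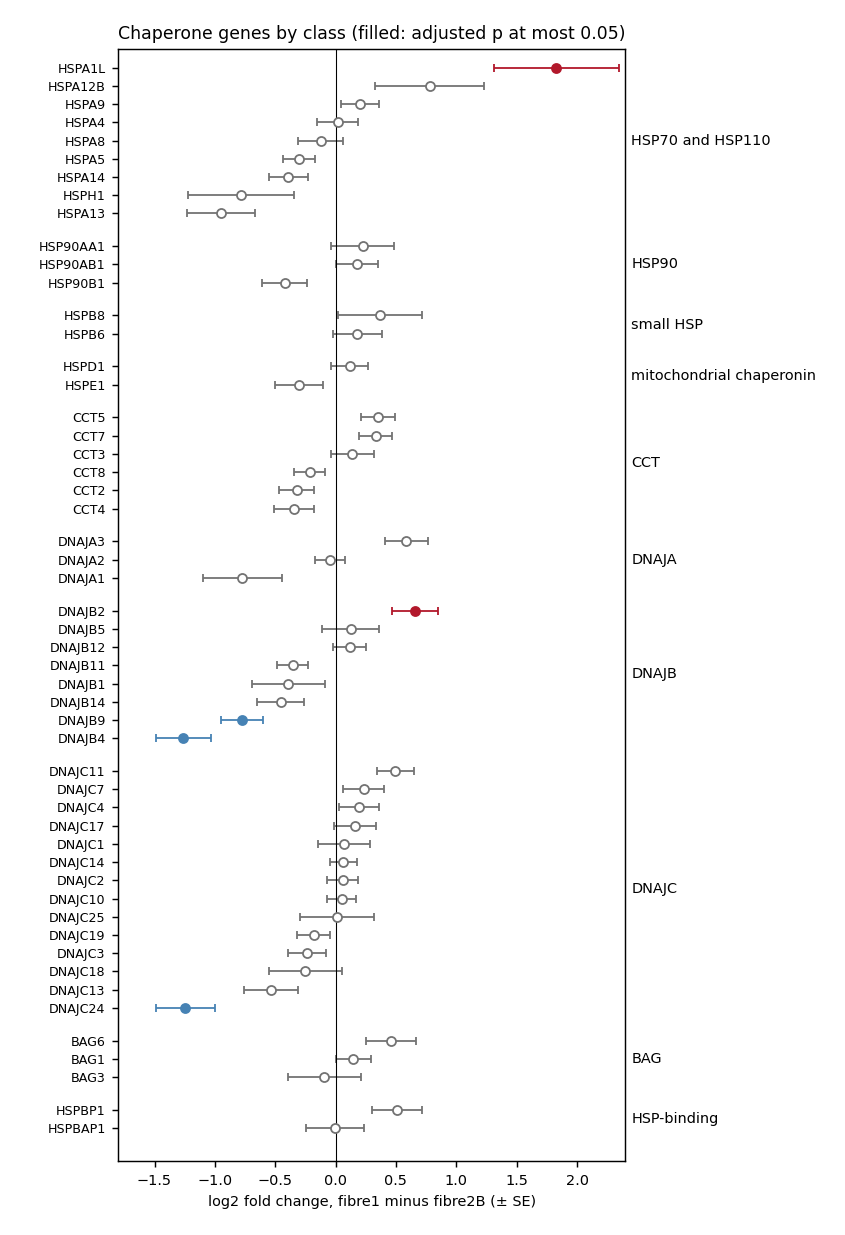
Log2 fold change of each of the 52 members, fibre1 minus fibre2B, with its standard error as the bar, grouped by class. Filled points passed the adjusted p of 0.05 (red higher in fibre1, blue higher in fibre2B), and members of 1 class lie on both sides of 0 in every class with more than 2 members.

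DNAJB4 had the smallest p among the members. It encodes an HSP40 of the cytosol that is abundant in striated muscle. In fibre2B it had 290 CPM in pig 10, 174 in pig 11, 231 in pig 14 and 153 in pig 16. In fibre1 it ran from 46.0 CPM in pig 1 over a median of 83.3 to 123 CPM in pig 17. Every fibre2B pig was therefore above every fibre1 pig. The fibre1 mean was 88.5 ± 24.1 CPM (SD, n = 7) and the fibre2B mean 212 ± 61.5 CPM (SD, n = 4), a 2.39-fold difference (log2 fold change -1.26 ± 0.23 SE, edgeR adjusted p = 0.0159). The call was lost without fibre2B pig 14 (adjusted p = 0.0574) and without fibre1 pigs 5 and 6 together (0.0558), where the log2 fold change was -1.21 and -1.22. It kept its call without any other single pig. Without pig 14 no gene of the whole table passed by edgeR, while 2436 had an unadjusted p under 0.05.

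DNAJC24 encodes a J-protein needed to make diphthamide, a modified residue of elongation factor 2. It was lowly counted, at 7.98 CPM in fibre2B pig 10, 14.2 in pig 11, 15.04 in pig 14 and 7.19 in pig 16. Fibre1 ran from 3.24 CPM in pig 6 over a median of 4.39 to 6.52 CPM in pig 7. Here too the groups did not overlap, although pigs 10 and 16 lay close to the upper fibre1 pigs. Fibre1 averaged 4.65 ± 1.23 CPM (SD, n = 7) and fibre2B 11.096 ± 4.08 CPM (SD, n = 4). The log2 fold change was -1.25 ± 0.24 (edgeR adjusted p = 0.0170). The call was lost without fibre2B pig 14 (log2 fold change -1.06, adjusted p = 0.0691) and without fibre1 pigs 5 and 6 together (-1.09, 0.0591).

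DNAJB9 encodes a J-protein of the endoplasmic reticulum (ER) that works with HSPA5 and is induced when proteins misfold there. Its 4 fibre2B values lay close together, at 46.6 CPM in pig 10, 52.9 in pig 11, 48.4 in pig 14 and 43.5 in pig 16. The fibre1 pigs ran from 21.0 CPM in pig 1 over a median of 25.7 to 38.0 CPM in pig 12. No fibre1 pig reached the lowest fibre2B pig. The log2 fold change was -0.78 ± 0.17 (means of 27.9 ± 6.98 and 47.8 ± 3.96 CPM, SD, n = 7 and 4; edgeR adjusted p = 0.0240). It missed the threshold when pig 2 of fibre1 (adjusted p = 0.0502), pig 10 (0.0529) or pig 14 (0.0771) of fibre2B, or fibre1 pigs 5 and 6 together (0.0781) were left out, and with no scaling factors (0.064), with log2 fold changes of -0.94 to -0.66.

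DNAJB2 encodes an HSP40 with ubiquitin-binding motifs that steers substrates to the proteasome. Its values were 10.5 CPM in fibre2B pig 10, 10.4 in pig 11, 13.1 in pig 14 and 13.1 in pig 16. In fibre1 the lowest value was 13.9 CPM in pig 12, the median 16.7 and the highest 26.1 CPM in pig 6. The groups did not overlap, but the lowest fibre1 pig was less than 1 CPM above the highest fibre2B pig. The log2 fold change was 0.66 ± 0.19 (18.6 ± 4.56 against 11.8 ± 1.53 CPM, SD, n = 7 and 4; edgeR adjusted p = 0.0460). Pigs 5 and 6 were the highest, and without both the log2 fold change was 0.46 (adjusted p = 0.117). The call was also lost without any 1 of fibre1 pigs 1, 2, 5 and 6 or any fibre2B pig (0.0712 to 0.112, with log2 fold changes of 0.55 to 0.72), with limma-voom (0.63, adjusted p = 0.0552), with no filter (0.66, adjusted p = 0.0582), with no scaling factors (0.416, adjusted p = 0.156) and with the top-10 share, the share of counts on those 10 genes, as a covariate (0.0939).

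The ID listed as HSPA1L had the largest fold of all members and the widest spread. HSPA1L is an HSP70 gene of the same cluster as the heat-inducible HSP70 genes. Fibre1 fell into a high and a low set, with 906 CPM in pig 5, 1104 in pig 7, 1126 in pig 2 and 1554 in pig 6, but 194 in pig 1, 328 in pig 17 and 358 in pig 12. Fibre2B had 201 CPM in pig 10, 261 in pig 11, 305 in pig 14 and 129 in pig 16. The low fibre1 pigs were thus near the fibre2B pigs, and pig 1 was below 3 of the 4. The fibre1 mean was 796 ± 510 CPM (SD, n = 7) and the fibre2B mean 224 ± 76.2 CPM (SD, n = 4), a 3.55-fold difference (log2 fold change 1.83 ± 0.52, edgeR adjusted p = 0.0443). The call was lost without any 1 of fibre1 pigs 2, 5, 6 and 7 or any fibre2B pig (0.0564 to 0.112, with log2 fold changes of 1.57 to 2.03) and without pigs 5 and 6 together (log2 fold change 1.48, adjusted p = 0.125). It was lost too with limma-voom (0.065), with the robust test (0.0578), with no scaling factors (0.0822) and with the top-10 share as a covariate (1.25, adjusted p = 0.0965).

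It is uncertain which HSP70 gene these reads came from. In the RefSeq table of the later build Sscrofa11.1, HSP70.2, whose synonyms there are HSPA1A and HSPA1B, lies within the span of HSPA1L. The row named HSP70.2 in the count table held 5 to 29 counts per pig, while the HSPA1L row held 2476 to 26898. How the authors' counting shared reads between them is not given in the sources used here.

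**Figure D2:**
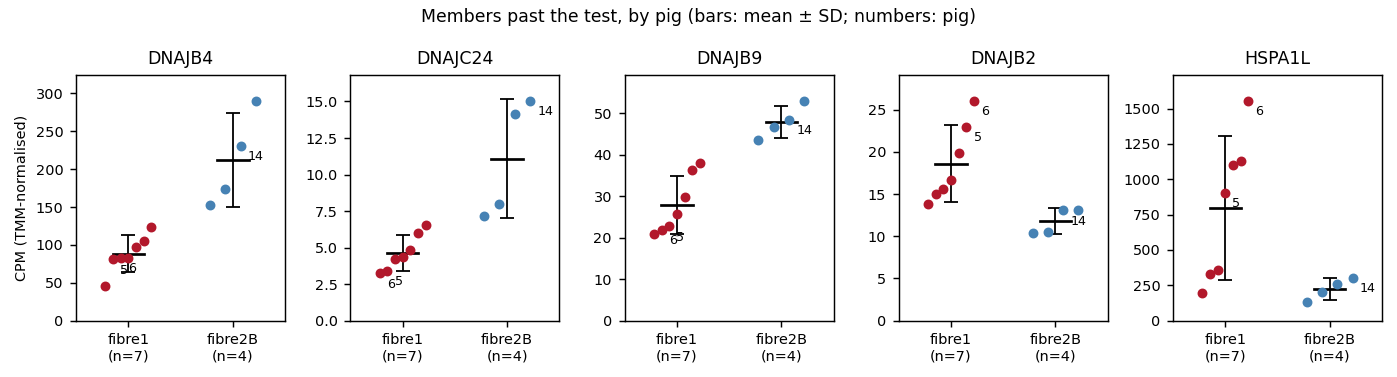
CPM by pig for the 5 members that passed the test, 7 fibre1 pigs in red and 4 fibre2B pigs in blue, with the mean and SD as bars and fibre1 pigs 5 and 6 and fibre2B pig 14 numbered. The groups do not overlap in DNAJB4, DNAJC24, DNAJB9 and DNAJB2, while 3 fibre1 pigs lie among or near the fibre2B pigs for HSPA1L (194, 328 and 358 CPM).

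The rest of the HSP70 and HSP110 class, 8 of 9 members, did not pass. HSPA8, the constitutive HSP70 of the cytosol, ran from 782 to 1018 CPM in fibre1 (median 946) and had 841, 668, 1436 and 1086 CPM in fibre2B pigs 10, 11, 14 and 16. Both the lowest and the highest pig belonged to fibre2B, and the log2 fold change was -0.12 ± 0.19 (edgeR adjusted p = 0.697; 0.10 without pig 14). HSPA13, an HSP70 relative of the microsomes, missed the threshold narrowly (3.20 ± 1.31 against 6.27 ± 1.48 CPM, log2 fold change -0.95 ± 0.28, adjusted p = 0.05003). It passed with 7 of 13 other settings, with adjusted p of 0.0167 to 0.126 over all of them. With single pigs left out it passed by edgeR in 1 of 11 fits, without fibre1 pig 12 (adjusted p 0.016 to 0.164). Its fibre2B values were 4.998, 6.81, 8.12 and 5.16 CPM, and of the fibre1 pigs only pig 12, at 5.56 CPM, reached that range. For HSPA9, the HSP70 of mitochondria, the value was 0.20 ± 0.16 (adjusted p = 0.413), and for HSPA4, an HSP110-type gene, 0.019 ± 0.17 (0.954). HSPA14 (-0.39 ± 0.16, adjusted p = 0.129) and HSPA12B (0.78 ± 0.45, 0.272) did not pass either.

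Among the HSP90 genes 0 of 3 passed by edgeR, with 1 at an unadjusted p under 0.05 and 0 by DESeq2. HSP90AA1, the stress-inducible cytosolic HSP90, ran from 429 to 816 CPM in fibre1 (median 627). In fibre2B it had 316 CPM in pig 10, 443 in pig 11, 898 in pig 14 and 440 in pig 16. Pigs 10, 11 and 16 were below all or all but 1 of the fibre1 pigs, and pig 14 was above all of them. The log2 fold change was 0.22 ± 0.26 (edgeR adjusted p = 0.596), 0.63 without pig 14 (0.146) and -0.044 with no scaling factors (0.938). HSP90AB1, its constitutive partner, had 361 ± 65.4 against 319 ± 62.6 CPM (SD, n = 7 and 4; log2 fold change 0.18 ± 0.17).

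Of 3 small heat shock protein genes with a row 2 were members, and neither passed (by DESeq2 neither, and none at an unadjusted p under 0.05). HSPB8 ran from 321 CPM in fibre1 pig 7 to 960 CPM in pig 6, with a median of 754. The fibre2B pigs had 344, 851, 576 and 359 CPM in pigs 10, 11, 14 and 16. Both groups held low and high pigs, and the spread within a group was larger than the difference between them (log2 fold change 0.36 ± 0.35, edgeR adjusted p = 0.514). HSPB6 had 15.5 ± 3.65 and 13.7 ± 3.46 CPM.

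BAG3, the partner of HSPB8, was spread over the pigs in a similar way. It had 153, 185, 190 and 164 CPM in fibre1 pigs 2, 5, 6 and 17, and 79.7, 90.7 and 90 CPM in pigs 1, 7 and 12. In fibre2B it had 197 CPM in pig 11 and 198 in pig 14, but 99.9 in pig 10 and 85.0 in pig 16. The 4 fibre1 pigs and the fibre2B pig 11 that were high for BAG3 were also the 5 highest pigs for HSPB8. Filamin C (FLNC), the client of this pair at the Z-disc, had 2166 to 3207 CPM in the same 4 fibre1 pigs and 695 to 1123 CPM in the other 3, and 1718 and 1854 CPM in fibre2B pigs 11 and 14. These values are a description, since the sets of pigs were seen in the data. The tested immediate early genes (FOS, EGR1, ATF3, JUNB, MYC, IER2 and IER3) summed to 323, 2082, 1396 and 869 CPM in those 4 fibre1 pigs and to 33.7, 67.1 and 313 CPM in pigs 1, 7 and 12. They summed to 1876 CPM in fibre2B pig 11 and to 253 to 313 CPM in the other fibre2B pigs. Their part in the spread of BAG3 and HSPB8 was not tested. Between the groups BAG3 had a log2 fold change of -0.093 ± 0.30 (edgeR adjusted p = 0.863), BAG1, an exchange factor of HSP70, 0.15 ± 0.15 (0.531), and BAG6, which guards proteins bound for membranes, 0.46 ± 0.21 (0.164). Under other settings that of BAG3 lay between -0.40 and 0.17 with every pig kept or pigs 5 and 6 left out.

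**Figure D3:**
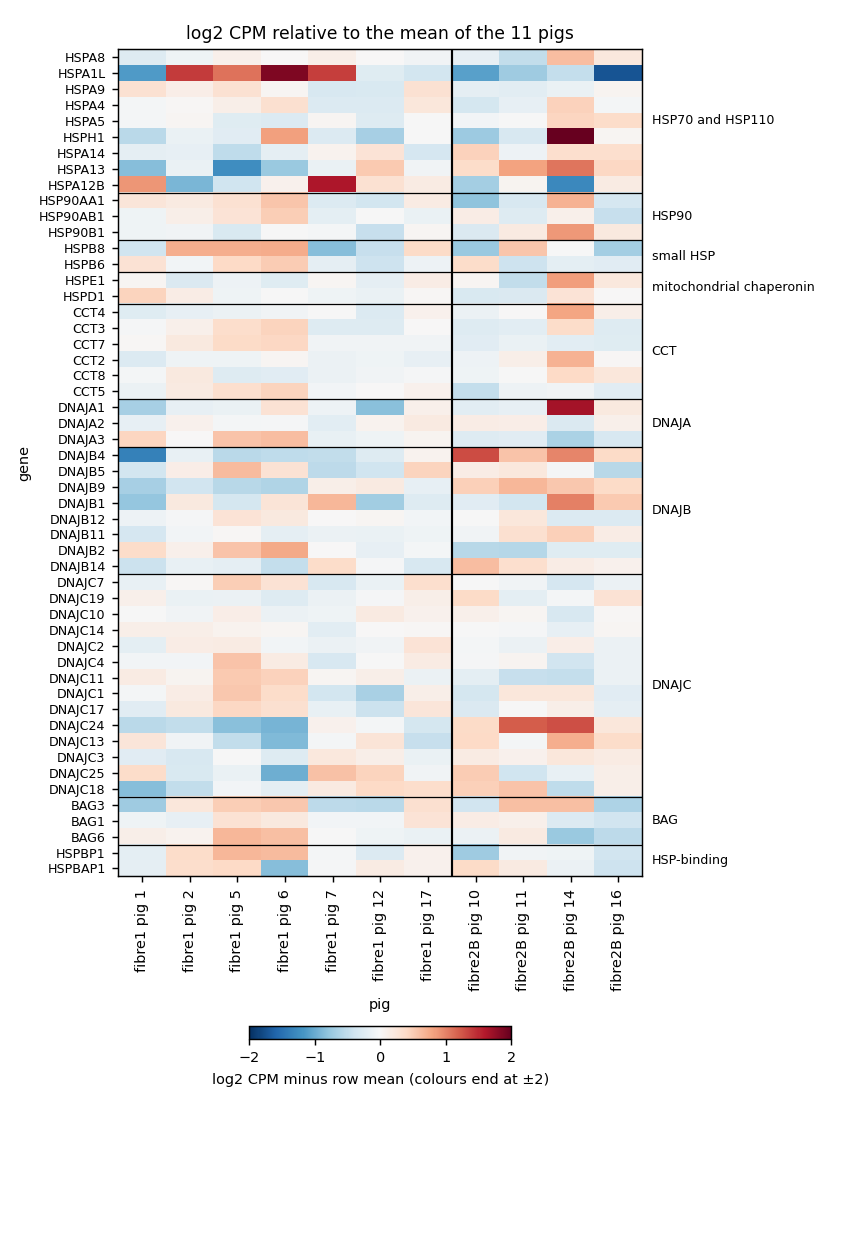
Log2 CPM of each member in each pig minus the mean of that member over the 11 pigs, with members in rows by class and pigs in columns, fibre1 left and fibre2B right of the line. Fibre2B pig 14 or fibre1 pig 5 or 6 is the highest pig for 38 of the 52 members, with HSPH1 (137 CPM) and DNAJA1 (212 CPM) in pig 14 among the deepest reds.

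Most of the highest values lay in 3 pigs. Fibre2B pig 14 was the highest for 18 members and fibre1 pigs 5 and 6 for 11 and 9, against at most 4 in any other pig. Pigs 5 and 6 also stood apart in their top-10 share, but pig 14 did not (33.0%). The share over these 3 pigs is therefore one over the pigs with the most such values. Of the 52 members 38 had their highest CPM in fibre2B pig 14 or in fibre1 pig 5 or 6, which is 73.1% beside 40.0% of all genes tested. Pig 14 alone was the highest for 18 members (34.6%, beside 16.7% of all genes). In that pig 16 members were at least 1.5-fold above the median of the other 3 fibre2B pigs, 30.8% beside 12.4% of all genes, and 3 members were as far below it, 5.77% beside 14.8%. In pig 5, 8 members (15.4% beside 9.58%) and in pig 6, 11 members (21.2% beside 10.3%) were at least 1.5-fold above the median of the other 5 fibre1 pigs. As far below it were 2 members in pig 5 (3.85% beside 21.5% of all genes) and 4 in pig 6 (7.69% beside 20.6%). These shares are descriptions of single libraries and were not tested.

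The members highest in pig 14 included several that heat shock factors are known to induce, but such induction was not tested here. Other heat shock genes were highest elsewhere. HSPB8 had 576 CPM in pig 14 and 960 CPM in fibre1 pig 6, and HSPD1 had 119.7 CPM in pig 14 and 135 CPM in fibre1 pig 1. HSPH1, which encodes an HSP110 protein, had 137 CPM in pig 14 against 19.99, 26.6 and 34.1 CPM in pigs 10, 11 and 16, or 5.15 times their median. In fibre1 it ran from 20.9 to 33.1 CPM in 6 pigs and was 58.4 CPM in pig 6. DNAJA1, an HSP40 of the cytosol, had 212 CPM in pig 14 against 58.0, 59.4 and 76.8 CPM in the other fibre2B pigs and 37.6 to 81.3 CPM in fibre1. DNAJB1, the best-known inducible HSP40, had 41.6 CPM in pig 14, 30.0 in pig 16 and 17.8 and 16.2 in pigs 10 and 11, with 12.2 to 33.0 CPM in fibre1. HSPE1 had 338 CPM in pig 14 and 134 to 219 CPM in all other pigs.

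None of HSPH1, DNAJA1, DNAJB1 and HSPE1 passed with all pigs. They were picked for their high values in pig 14, so leaving it out had to move the log2 fold change towards fibre1, and the values are a description. For HSPH1 the log2 fold change was -0.78 ± 0.44 (edgeR adjusted p = 0.260) with all pigs and 0.24 (0.665) without pig 14. That of DNAJA1 was -0.77 ± 0.33 (0.140) and -0.11 (0.802), that of DNAJB1 -0.39 ± 0.30 (0.413) and -0.079 (0.904), and that of HSPE1 -0.30 ± 0.20 (0.336) and -0.015 (0.969). HSPA1L was also highest of the fibre2B pigs in pig 14, at 305 CPM or 1.51 times the median of the other 3, but below 6 of the 7 fibre1 pigs. Pig 14 also had the fewest counts (14832736), the lowest summed slow-fibre markers (2715 CPM, against 4871 to 42000 in the other pigs), and the lowest summed skeletal muscle markers (103800 CPM, against 113400 to 258700). It had the highest summed markers of blood (955 CPM, against 137 to 695), immune cells (20.1, against 4.10 to 13.1), satellite cells (53.5, against 23.9 to 36.1), adipocytes (6.41, against 0.108 to 4.42, with 2 tested genes) and fibroblasts (1437, against 472 to 1429). It was not the highest for endothelium (72.6 CPM, against 61.5 to 126.5), smooth muscle and pericytes (122.8, against 71.3 to 143.1) or nerve (0, against 0 to 1.47). Their part in the values of pig 14 was not tested.

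**Figure D4:**
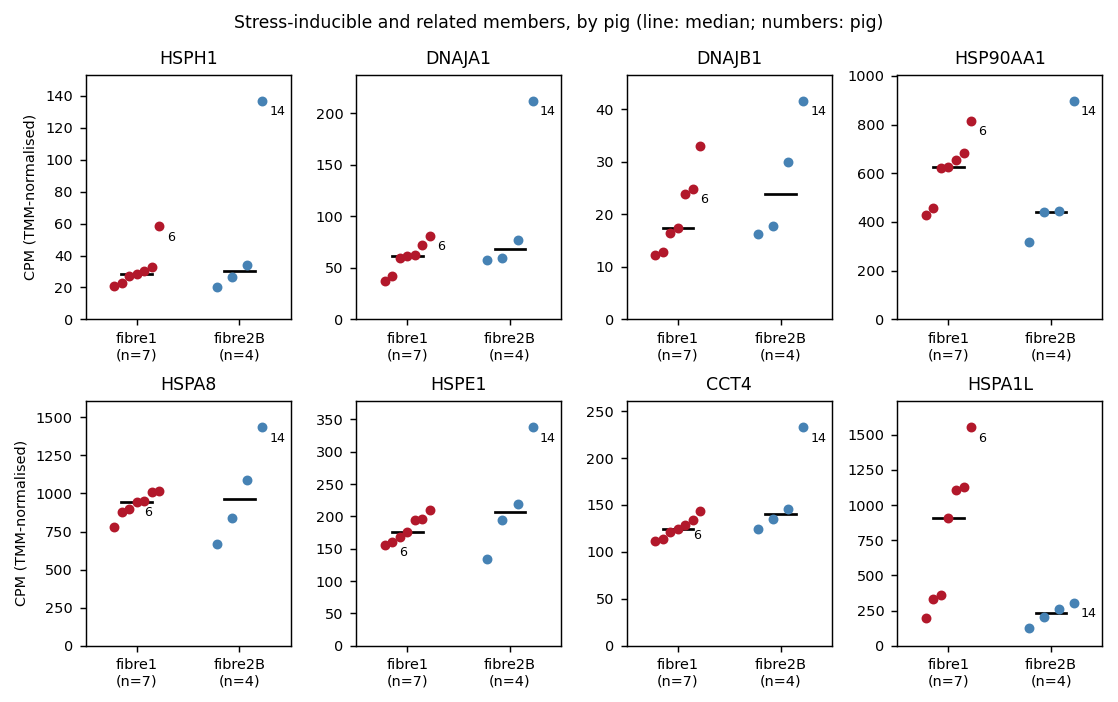
CPM by pig for 8 members chosen after their values were seen, with the median of each group as a line and fibre2B pig 14 and fibre1 pig 6 numbered. Pig 14 is the highest of the 11 pigs for HSPH1, DNAJA1, DNAJB1, HSP90AA1, HSPA8, HSPE1 and CCT4, but has 305 CPM for HSPA1L, where pig 6 has 1554.

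Neither mitochondrial chaperonin gene passed. HSPD1, which forms the ring, averaged 103 ± 15.6 and 94.7 ± 18.8 CPM (SD, n = 7 and 4; log2 fold change 0.12 ± 0.15, edgeR adjusted p = 0.639). Its lid HSPE1 had 180 ± 20.1 and 221 ± 85.5 CPM. Of the J-proteins of mitochondria, DNAJA3 came closest to passing (22.9 ± 5.20 against 15.2 ± 1.88 CPM, log2 fold change 0.59 ± 0.18, adjusted p = 0.0567). Its fibre2B pigs had 16.3, 16.6, 12.5 and 15.5 CPM and every fibre1 pig had at least 17.5 CPM, so the groups did not overlap. DNAJC11, found with the complex that shapes the inner membrane, had 0.49 ± 0.16 (adjusted p = 0.0605), and DNAJC19, of the import motor, -0.18 ± 0.13 (0.385). DESeq2 called DNAJA3 (0.0240) and DNAJC11 (0.0279). DNAJA3 was also called by limma-voom with quality weights (0.0425) and by edgeR with 1 surrogate variable (0.0453). Over the 6 mitochondrial members, a grouping made after the values were seen, the median log2 fold change was 0.16, with 4 positive, 2 negative and 0 called (by DESeq2 these 2 genes). By edgeR 50.7% of all genes tested were positive and 9.01% were called.

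The 6 CCT genes encode subunits of 1 ring, and 0 of them passed by edgeR (3 had an unadjusted p under 0.05) or by DESeq2. With 1 surrogate variable added to the edgeR fit CCT5 passed (adjusted p = 0.0404). CCT5 (0.35 ± 0.14), CCT7 (0.33 ± 0.14) and CCT3 (0.14 ± 0.18) had positive and CCT4 (-0.35 ± 0.17), CCT2 (-0.32 ± 0.15) and CCT8 (-0.22 ± 0.13) negative log2 fold changes, with adjusted p of 0.116 to 0.633. CCT3 had -0.11 with no scaling factors and -0.015 without fibre1 pigs 5 and 6. CCT7 did not overlap between the groups, with 101 to 142 CPM in fibre1 and 90.7, 97.3, 92.5 and 90.2 CPM in fibre2B. CCT4 had 124, 135, 233 and 146 CPM in fibre2B pigs 10, 11, 14 and 16 and 112 to 143 CPM in fibre1. Pig 14 was the highest for CCT2, CCT4 and CCT8 and pig 6 for CCT3, CCT5 and CCT7. For CCT3 the 2 pigs were close, with 156.9 CPM in pig 14 and 166.5 CPM in pig 6. Whether the RNA levels of these genes kept 1 proportion across the pigs was not tested. Summed over the class, fibre1 had 590 ± 53.6 CPM and fibre2B 610 ± 121 CPM.

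The chaperones of the ER were set together after their values were seen. Of 9 members 6 had a negative log2 fold change and 3 a positive one. HSPA13, of the microsomes, was not counted among them, though its value was also negative (-0.95, edgeR adjusted p = 0.05003). The median of these 9 was -0.30, and DNAJB9 was the 1 that passed. Of all genes tested 50.7% were positive and 9.01% were called, with a median of 0.0073. HSPA5, the HSP70 of the ER, had 55.2, 57.3, 77.1 and 73.98 CPM in fibre2B pigs 10, 11, 14 and 16 and 47.4 to 59.0 CPM in fibre1. Its log2 fold change was -0.30 ± 0.13 (edgeR adjusted p = 0.152). HSP90B1, the HSP90 of the ER, had 52.6, 72.9, 118 and 73.8 CPM against 46.9 to 66.4 CPM (-0.42 ± 0.18, 0.148; -0.16 without pig 14, 0.583). DNAJB11 (-0.36 ± 0.13, adjusted p = 0.0923), DNAJB14 (-0.45 ± 0.19, 0.143) and DNAJC3 (-0.24 ± 0.16, 0.347) were negative too. DNAJC10 (0.050), DNAJC1 (0.070) and DNAJB12 (0.12) were the positive ones. The ER members other than DNAJB9 overlapped between the groups.

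Of the 8 DNAJB members 3 were called, 37.5% beside 9.01% of all genes tested (12.5% beside 4.38% higher in fibre1 and 25.0% beside 4.63% higher in fibre2B), and the class ran from -1.26 to 0.66. These are shares of 8 genes and were not tested. Its summed level was 325 ± 56.5 CPM in fibre1 and 461 ± 77.1 CPM in fibre2B, of which DNAJB4 made up 88.5 and 212 CPM. DNAJB5, an HSP40 abundant in heart and muscle, had 131 ± 41.1 and 120 ± 26.0 CPM (log2 fold change 0.12 ± 0.24). In the DNAJC class 9 of 14 members were positive and 5 negative, with a median of 0.054, and DNAJC24 was the 1 called (7.14% beside 9.01% of all genes). DNAJC7, which binds both HSP70 and HSP90, had 209 ± 43.7 and 178 ± 16.6 CPM (0.23 ± 0.17, edgeR adjusted p = 0.375). DNAJC13, of endosomes, had -0.54 ± 0.22 (0.134). DNAJC14 (0.065), DNAJC2 (0.059) and DNAJC25 (0.014) lay near 0. The HSP70-binding exchange factor HSPBP1 had 27.4 ± 7.29 and 19.2 ± 3.83 CPM (0.51 ± 0.21, 0.128), with its highest values in pigs 5 and 6 (37.0 and 36.5 CPM). It passed by edgeR with 1 surrogate variable (adjusted p = 0.0225). HSPBAP1, which binds HSPB1, had 2.78 CPM in each group.

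**Figure D5:**
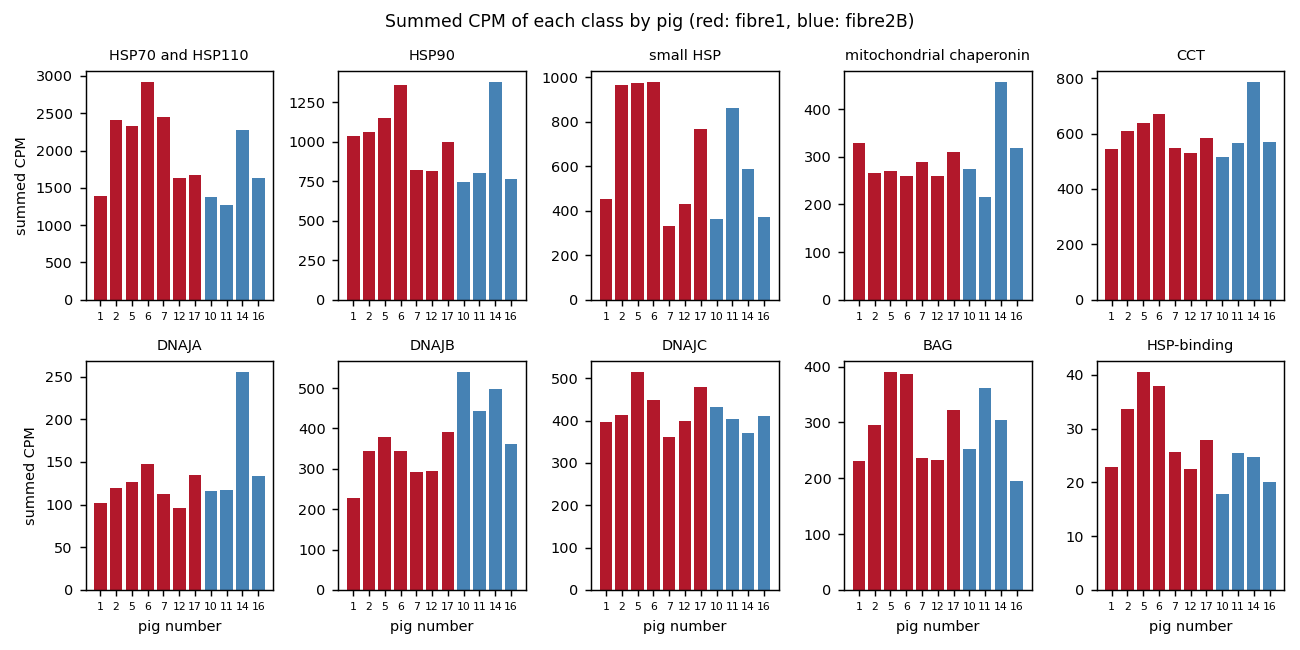
Summed CPM of the members of each class in each pig, with fibre1 pigs in red and fibre2B pigs in blue. Pig 14 stands out in the DNAJA class (256 CPM) and the mitochondrial chaperonins (458 CPM), and all fibre2B pigs but pig 16 (362 CPM) exceed every fibre1 pig in the DNAJB class.

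Regulators and partners of chaperones outside the symbol rule came from a list of 55 genes, of which 39 were tested. By edgeR 6 passed, 2 with the higher level in fibre1 and 4 with the higher level in fibre2B (background 4.38% and 4.63%), while 33 did not. The median log2 fold change was 0.078, and 21 were positive. UNC45B, the HSP90 partner that folds myosin in striated muscle, had 78.4, 89.2, 86.8 and 72.5 CPM in fibre2B pigs 10, 11, 14 and 16 and 107 to 222 CPM in fibre1 (log2 fold change 0.84 ± 0.18, adjusted p = 0.0208). FKBP8, an anchored HSP90 partner of the outer mitochondrial membrane, had 298 ± 63.5 and 177 ± 17.7 CPM (0.75 ± 0.17, 0.0244). The groups did not overlap in either gene.

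HSF2, one of the heat shock factors, was higher in fibre2B, with 33.8, 24.1, 36.6 and 27.8 CPM against 14.5 to 21.3 CPM in fibre1 (log2 fold change -0.76 ± 0.15, edgeR adjusted p = 0.0176). HSF1, the main heat-responsive factor, had 43.7 ± 12.8 and 29.6 ± 8.29 CPM (SD, n = 7 and 4), a log2 fold change of 0.56 ± 0.23 that did not pass (adjusted p = 0.134). TXNDC9, a regulator of the CCT ring, fell in fibre1 relative to fibre2B (16.9 ± 3.37 against 25.9 ± 1.505 CPM, -0.62 ± 0.15, 0.0294). So did SEC63, a J-protein of the ER translocon (21.3 ± 1.54 against 28.2 ± 3.62 CPM, -0.40 ± 0.12, 0.0491), and FKBP5, an HSP90 partner induced by glucocorticoids (0.542 ± 0.332 against 1.78 ± 0.822 CPM, -1.64 ± 0.44, 0.0383). FKBP5 was counted very low and its groups overlapped, with 1.107 CPM in fibre1 pig 12 and 0.8336 CPM in fibre2B pig 16. TCP1, the CCT subunit that the symbol rule leaves out, had -0.26 ± 0.14 (0.238).

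All 6 partner calls were lost by edgeR without fibre2B pig 14 (adjusted p from 0.0693 for HSF2 to 0.142 for FKBP5). No gene of the whole table passed in that fit. The log2 fold changes were then 0.88 for UNC45B, 0.72 for FKBP8, -0.66 for HSF2, -0.58 for TXNDC9, -0.39 for SEC63 and -1.32 for FKBP5. All 6 were also lost without fibre1 pigs 5 and 6 together (0.0502 for UNC45B to 0.120 for SEC63) and with no scaling factors (0.0544 for HSF2 to 0.0727 for SEC63). HSF2 kept its call without any other single pig. Those of SEC63, FKBP5, TXNDC9, FKBP8 and UNC45B were also lost without 9, 7, 6, 4 and 3 of the 11 single pigs, pig 14 included. SEC63 passed in 7 of the 13 other settings. It was lost too with DESeq2 size factors in edgeR (0.0545), no filter (0.0865), limma-voom (0.0553) and the top-10 share as a covariate (0.0752). With that covariate FKBP5 (0.0736) and TXNDC9 (0.0584) were lost as well.

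Markers of other cells differed between the groups in part. Of all genes tested 4.63% were called higher in fibre2B and 28.9% had an unadjusted p under 0.05. Of 4 tested fibroblast markers 2 were called higher in fibre2B, and they summed to 472 to 976 CPM in fibre1 and 743 to 1437 CPM in fibre2B. Of 2 blood markers 1 was called higher in fibre2B (137 to 467 against 423 to 955 CPM). By edgeR no immune marker of 4 tested (4.10 to 13.1 against 9.33 to 20.1 CPM), no endothelial marker of 4 (61.5 to 127 against 72.3 to 113 CPM) and no immediate early gene of 7 passed. At an unadjusted p under 0.05 these lists had 1, 2 and 0. Smooth muscle and pericyte, adipocyte and satellite cell lists had 1 gene each called higher in fibre2B (KCNJ8, RBP4 and VCAM1), of 5, 2 and 3 tested. In these lists 3, 1 and 1 of the tested genes had a positive log2 fold change. Their part in the chaperone differences was not tested.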

How the data were processed

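RNA of 11 pigs was compared, 7 fibre1 and 4 fibre2B, with 1 column of gene values per pig, matched by the number in the sample titles. The deposited values are expected counts per Ensembl gene, without decimals and not normalised. Per the submitters' processing notes CASAVA 1.8.2, FastQC, STAR, RSEM, edgeR, DESeq2 and the build Sscrofa10.2 were used, with no role or order named. Whether strand was used, and how the 5 technical repetitions of the series' design text were joined, is not given in the sources used here. There were 0 columns of other samples. The isoform table was not used here.

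Gene IDs were paired with symbols for 11804 rows. The counts, already whole, were tested in R 4.3.3. In edgeR 4.0.16, TMM factors and a low-count filter (filterByExpr) left 11329 genes, and group was the only term of the quasi-likelihood fit. Adjusted p are Benjamini-Hochberg values over all of these. A standard error is |log2 fold change| over the root of its F. CPM are TMM-normalised (the filter on members used CPM without these factors) and not divided by gene length, so levels do not compare between genes. No set test was run.

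The members, classes and lists were chosen with earlier results of these data known. Named are all called members and partners, per class the member with the most counts and the uncalled one with the smallest p, a set of genes fixed by name, and the CCT genes. Other members named were added after their values were seen. Alternatives were 3 other scalings, 2 filters, DESeq2 1.42.0, limma-voom (3.58.1), also with quality weights, a robust edgeR fit, 1 surrogate variable (sva 3.50.0), the top-10 share as a covariate, dropping those 10 and mitochondrial genes, leaving out each pig or fibre1 pigs 5 and 6, and stricter member filters of 5 CPM in 4 pigs or 1 CPM in all 11. The pipeline was tested on simulated data.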

Additional observations from a re-analysis of the deposited data

Results flagged for a closer look

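Within each group the highest and lowest pig were compared with their neighbours by Dixon's test at the 95% level, in 96 checks over named genes and class sums. Chance flags about 1 in 20 groups, and 7 values were flagged. In fibre2B pig 14 had DNAJA1 at 212 CPM (next 76.8), HSPH1 at 137 CPM (next 34.1) and CCT3 at 157 CPM (next 106). It also had the summed HSP90 genes at 1381 CPM (next 802) and the summed DNAJA genes at 256 CPM (next 133). In fibre1 pig 6 had HSPH1 at 58.4 CPM (next 33.1) and pig 1 had HSPD1 at 135 CPM (next 110). Of the 7 flagged values 5 belonged to pig 14. The summed DNAJA genes include DNAJA1, which was flagged by itself, while no single HSP90 gene was flagged.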

How the results depend on the processing

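The count of members higher in fibre1 (2) was 0 with no scaling factors, with limma-voom, with the top-10 share as a covariate and without fibre1 pigs 5 and 6 (17, 17, 11 and 11 of 52 members, in both directions, had an unadjusted p under 0.05), 1 with no filter or robust dispersion, 4 with DESeq2 and 5 with 1 surrogate variable. Leaving out single pigs gave 0 to 3. It was 0 when pig 2, 5 or 6 of fibre1 or any of fibre2B was left out (11 to 21 at an unadjusted p under 0.05), and 1 when pig 1 was. The count higher in fibre2B (3) was 5 with quality weights and 0 without fibre1 pigs 5 and 6, and 0 to 4 without single pigs, with 0 only without pig 14 (12 at an unadjusted p under 0.05). DESeq2 without pig 14, chosen after seeing the data, gave 2 and 3, with all 5 called members still called. Over all genes that fit called 426 higher in fibre1 and 358 higher in fibre2B. All 5 called members kept their direction in every setting. Over all genes 1021 calls became 157 with no scaling factors (53 higher in fibre1 and 104 lower, against 496 and 525), 1759 with DESeq2, 1748 with quality weights, 1628 with 1 surrogate variable, 450 with the covariate, 28 without pigs 5 and 6, and 0 (without pig 14, where 2436 had an unadjusted p under 0.05) to 1548 (without fibre1 pig 12) without single pigs. With no scaling factors the median of all genes was -0.19 and that of the members -0.17.

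Of 888 values of 37 named genes 776 kept direction and side of the threshold, 83 lost their call, 17 gained one and 12 changed sign, in uncalled members only. With no scaling factors these were HSP90AA1 (-0.0437), HSPA9 (-0.0161), HSP90AB1 (-0.0481), HSPD1 (-0.0862) and CCT3 (-0.111). Without fibre2B pig 14 they were HSPA8 (0.104), BAG3 (0.107) and HSPH1 (0.241), whose ranges over single pigs left out were -0.271 to 0.104, -0.269 to 0.107 and -1.06 to 0.241. BAG3 also had 0.171 with quality weights, 0.0027 without fibre1 pig 1 and 0.101 without fibre2B pig 11, and CCT3 -0.0147 without pigs 5 and 6. The cause was not tested. The comparison of promoter motif lengths was not run. No paired analysis was possible because the groups share no replicate number.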
